A study of Mus musculus with 18 samples.

Results

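The 9 genes described here, Mbd1, Mbd2, Mbd3, Mbd4, Zbtb38, Zbtb33, Zbtb4, Uhrf2 and Kdm2b, encode proteins that bind CpG dinucleotides in DNA or belong to a family that does. They were chosen by symbol, with earlier results of these data known, out of 55453 gene names counted in every library. All 9 were among the 20787 genes that passed the filter on low counts. RNA was sequenced from 18 areas of mouse colon in 4 groups, which differ in tissue and in the folic acid (FA) of the chow. The 8P group was polypoid dysplasia from mice on 8 mg/kg FA (n = 5), and the 0P group was polypoid dysplasia from mice on chow with 0 mg/kg FA (n = 4). The 8ND and 0ND groups were colonic epithelium without dysplasia from mice on the same chows (n = 5 and n = 4).

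All groups were female Swiss Webster mice that received the carcinogen azoxymethane at 7 weeks of age and then, from 9 weeks, 4 cycles of 2% dextran sulfate sodium, which inflames the colon. The chows were fed for 16 weeks from 11 weeks of age, after a basal chow with 2 mg/kg FA, and tissue was taken at 27 weeks. No group used here was free of the carcinogen or of colitis, so ND is a comparison tissue from a treated colon and not healthy colon. Areas were picked on histology and cut out of fixed, paraffin-embedded sections by laser, and the labels do not say which libraries came from the same mouse. P-values therefore measure the spread between these libraries.

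Cytosine methylation at CpG sites is read by several protein families. Proteins with a methyl-CpG binding domain (MBD) and the zinc finger proteins of the Kaiso family (Zbtb33, Zbtb4 and Zbtb38) bind methylated sites and bring in complexes that silence transcription, while CXXC zinc fingers such as that of Kdm2b bind CpG sites without methylation, as found in CpG islands. Uhrf2 has an SRA domain, which holds a modified cytosine flipped out of the helix. In mouse models of intestinal adenoma, Mbd2 and Zbtb33 are both known for fewer tumours when they are deleted.

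Because these proteins read CpG sites, their own promoters are shown with every CpG in capitals. Mbd1 and Mbd2 were left out here because of the chromosome they lie on, so their promoters are not described. RefSeq windows on GRCm38.p6 ran from 250 bases before to 50 bases after each annotated start. Windows were taken for the remaining 7 of the 9 genes, 12 windows in all. They are printed for Zbtb38, whose expression differed most and which has 3 annotated starts, for Zbtb33, which encodes Kaiso, and for Mbd3, whose window holds the letters that Kaiso recognises. The windows of Zbtb38 are chr9:96731626-96731925, chr9:96719801-96720100 and chr9:96719396-96719695, all on the minus strand and all inside the longer gene body of the GENCODE annotation. The Mbd3 window is chr10:80399482-80399781 on the minus strand, and that of Zbtb33 is chrX:38189543-38189842 on the plus strand.
Zbtb38 start 1: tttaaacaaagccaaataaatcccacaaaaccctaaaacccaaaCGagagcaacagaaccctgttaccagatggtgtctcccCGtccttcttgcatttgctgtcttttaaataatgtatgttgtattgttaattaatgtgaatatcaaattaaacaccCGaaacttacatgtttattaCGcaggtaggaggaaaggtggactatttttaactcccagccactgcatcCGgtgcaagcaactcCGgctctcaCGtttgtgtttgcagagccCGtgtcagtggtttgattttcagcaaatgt
Zbtb38 start 2: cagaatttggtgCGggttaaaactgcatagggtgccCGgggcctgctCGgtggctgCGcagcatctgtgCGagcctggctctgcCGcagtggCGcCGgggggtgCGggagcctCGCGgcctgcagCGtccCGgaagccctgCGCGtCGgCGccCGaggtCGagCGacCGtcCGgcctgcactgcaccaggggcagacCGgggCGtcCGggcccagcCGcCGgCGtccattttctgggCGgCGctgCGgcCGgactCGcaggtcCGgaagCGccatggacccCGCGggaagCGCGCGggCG
Zbtb38 start 3: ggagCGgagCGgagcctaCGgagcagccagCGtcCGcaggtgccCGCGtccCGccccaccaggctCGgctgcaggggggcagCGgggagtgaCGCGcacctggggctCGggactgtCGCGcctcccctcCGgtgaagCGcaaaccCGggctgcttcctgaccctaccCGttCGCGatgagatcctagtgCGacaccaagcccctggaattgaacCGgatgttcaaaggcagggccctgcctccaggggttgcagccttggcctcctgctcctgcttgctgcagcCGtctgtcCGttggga
Mbd3: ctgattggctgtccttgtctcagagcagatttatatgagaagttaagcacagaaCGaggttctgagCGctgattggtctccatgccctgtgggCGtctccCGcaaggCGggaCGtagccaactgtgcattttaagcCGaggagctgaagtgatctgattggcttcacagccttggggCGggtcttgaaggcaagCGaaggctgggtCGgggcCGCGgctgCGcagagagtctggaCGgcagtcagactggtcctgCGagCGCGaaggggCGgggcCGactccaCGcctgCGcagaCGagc
Zbtb33: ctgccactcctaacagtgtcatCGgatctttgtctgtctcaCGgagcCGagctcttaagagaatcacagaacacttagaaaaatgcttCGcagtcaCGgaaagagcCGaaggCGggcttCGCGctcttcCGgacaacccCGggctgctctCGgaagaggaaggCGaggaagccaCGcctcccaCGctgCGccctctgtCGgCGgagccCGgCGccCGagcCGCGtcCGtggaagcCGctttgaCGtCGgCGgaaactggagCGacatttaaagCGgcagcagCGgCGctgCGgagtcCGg

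The 3 starts of Zbtb38 held 8, 41 and 25 CpG in 300 bases. The first is near the median of the 32851 mouse windows, which is 7, and the second is denser than 96.5% of them. Mbd3 held 22 CpG and Zbtb33 held 34. Among the other windows, Mbd4 had 25, Zbtb4 had 22, Uhrf2 had 28, and the 4 starts of Kdm2b had 28, 18, 47 and 49, the last pair from windows that overlap. The letters CCCGGG, which contain 1 CpG and are cut by the enzyme pair of the methylation assay used in the same study, were found in 6 of the 12 windows: starts 2 and 3 of Zbtb38, the Zbtb33 window, and starts 1, 3 and 4 of Kdm2b. They occur in 13.5% of all windows. The same site gave the match in both overlapping windows of Kdm2b, starts 3 and 4. The Kaiso recognition letters TCCTGCNA, in which N is any base, were searched on both strands. They occurred in the Mbd3 window, where N is G so that the match holds a CpG, and in none of the other 11, against 4.96% of all windows. A match describes the letters and not a bound site, and the gene counts do not separate the starts.

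**Figure D1:**
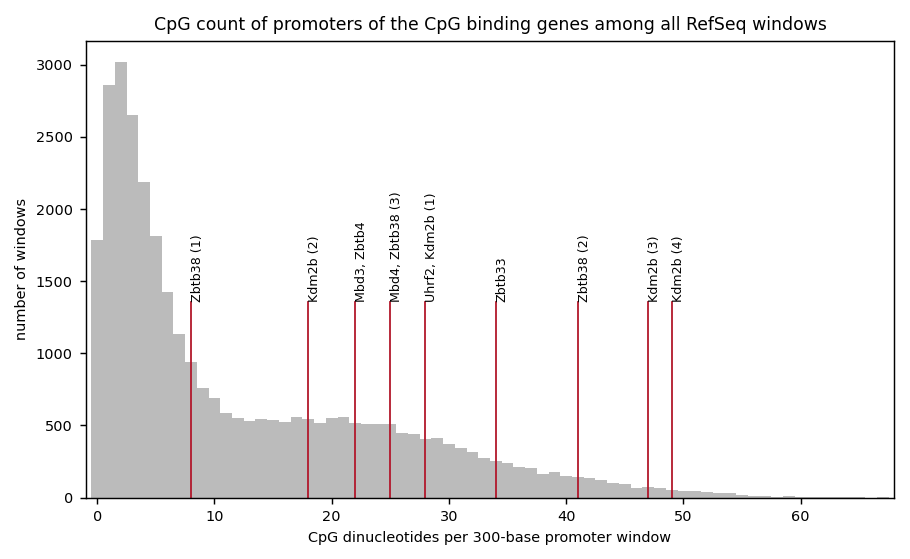
CpG dinucleotides per 300-base window (x axis) against the number of RefSeq mouse promoter windows (y axis, grey bars), with red lines for the windows of the 7 genes not on chromosome 18 and start numbers in parentheses. The windows spread from 8 CpG at the first Zbtb38 start to 49 at the fourth Kdm2b start, against a median of 7 over all windows.

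Libraries held 3500947 to 17048524 counts on genes, and levels are given as CPM, counts scaled to a common library size with edgeR's TMM factors. The summed levels of markers in this paragraph are the exception: they are CPM of each library's total on genes, without these factors. All 10 colonic epithelial markers on the list, among them Epcam and Cdh1, had counts in every library, with summed levels of 3241 to 3912 CPM in 8P, 3466 to 4971 CPM in 0P, 3856 to 5747 CPM in 8ND and 4389 to 5625 CPM in 0ND. Of the 10, 1 was higher and 7 lower in 8P vs. 8ND, and 1 higher and 4 lower in 0P vs. 0ND. These and the marker counts that follow are at an adjusted p under 0.05 in edgeR. Over all tested genes, 13.9% were higher and 14.3% lower in 8P vs. 8ND. In 0P vs. 0ND the shares were 15.9% higher and 15.7% lower. Markers of other cell types were present as well. All 7 smooth muscle markers were lower in dysplasia on both chows, with sums of 267 to 618 CPM in 8P, 373 to 732 CPM in 0P, 1053 to 1785 CPM in 8ND and 1040 to 2627 CPM in 0ND. The 8 B and plasma cell markers summed to 313 to 1850 CPM in 8P, 609 to 859 CPM in 0P, 2561 to 5629 CPM in 8ND and 1632 to 3006 CPM in 0ND, of which 4 fell in 8P vs. 8ND and 2 in 0P vs. 0ND. For the 8 fibroblast and matrix markers, sums were 956 to 2230 CPM in 8P, 1400 to 1825 CPM in 0P, 1184 to 1338 CPM in 8ND and 945 to 1022 CPM in 0ND, with 1 higher and 1 lower in 8P vs. 8ND, and 5 higher and 1 lower in 0P vs. 0ND. The 9 proliferation genes summed to 749 to 964 CPM in 8P, 754 to 1224 CPM in 0P, 539 to 701 CPM in 8ND and 450 to 804 CPM in 0ND, and 3 of them rose in 8P vs. 8ND and 6 in 0P vs. 0ND. The 6 neutrophil markers summed to 15.8 to 70.2 CPM in 8P, 21.2 to 31.1 CPM in 0P, 12.98 to 23.2 CPM in 8ND and 16.1 to 23.2 CPM in 0ND. Of the 5 that could be tested, 3 were higher and 1 lower in each tissue comparison. Elane, a marker on this list, was at 0 in all 18 libraries and S100a8 in 3. On the first principal component, which carried 45.6% of the variance, the libraries 8ND 1 and 8ND 2 lay nearest to dysplasia. The part of these differences in the results on the 9 genes was not tested. In bulk tissue, fewer cells of a type and less RNA per cell cannot be told apart.

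Per kilobase of exon, which allows genes of unlike length to be compared, Mbd2 had by far the highest level. Mbd2, the methyl-CpG binding subunit of a NuRD complex, averaged 46.8 ± 5.41 CPM per kb over the 18 libraries. Its lowest value in a single library, 37.5 CPM per kb in 8ND, lay above the highest of the other 8 genes, 26.5 CPM per kb for Uhrf2 in 8P. Below Mbd2 followed Uhrf2 (18.2 ± 2.88 CPM per kb), Mbd3 (16.6 ± 3.88), Zbtb38 (15.4 ± 6.71), Mbd1 (13.4 ± 2.19), Zbtb4 (11.0 ± 1.35) and Zbtb33 (9.87 ± 1.75). Neighbours in this order differed by less than the larger of their SDs, except that Mbd1 and Zbtb4 lay slightly farther apart. Kdm2b (3.57 ± 0.478) and Mbd4 (2.90 ± 0.467) formed the low end, apart from the rest and from each other by more than their SDs. The place of Zbtb38 depended on the tissue: it stood at 21.2 ± 2.62 CPM per kb in 8P and 21.9 ± 4.06 in 0P, close to Uhrf2 and Mbd3, against 10.2 ± 1.81 in 8ND and 8.32 ± 0.342 in 0ND, where it lay beside Zbtb33 and Zbtb4. Over single libraries, the span from lowest to highest CPM was 3.22-fold for Zbtb38 and 1.47-fold for Kdm2b, the widest and the narrowest of the 9 genes.

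**Figure D2:**
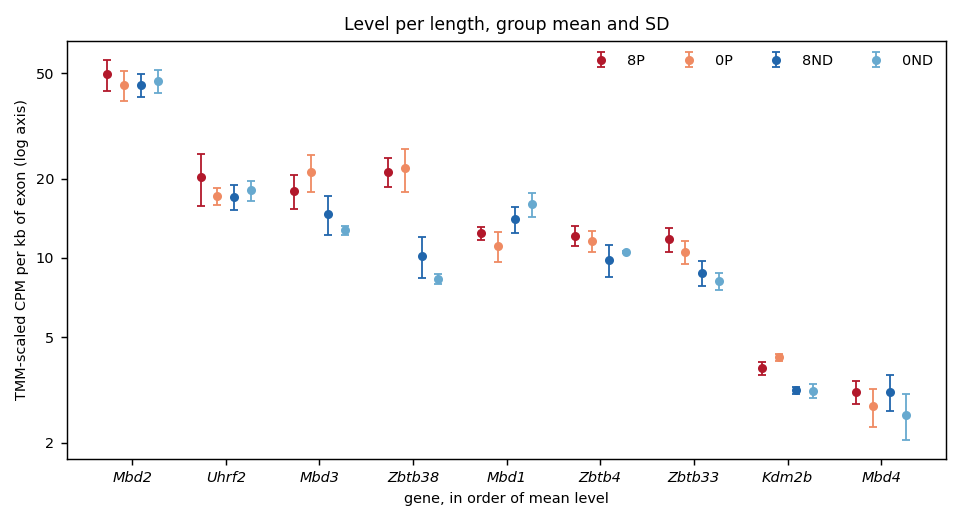
TMM-scaled CPM per kb of exon (y axis, log scale) for the 9 genes in order of their mean level (x axis), as the group mean with SD bars for 8P and 8ND (n = 5 each) and 0P and 0ND (n = 4 each). Mbd2 stands highest at 46.8 CPM per kb, Kdm2b and Mbd4 lowest at 3.57 and 2.90 CPM per kb, and Zbtb38 changes its place between dysplasia and ND.

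Polypoid dysplasia was compared with ND epithelium on each chow to find which readers of CpG differ with the lesion. In 0P vs. 0ND, 5 of the 9 genes passed an adjusted p of 0.05 in edgeR, 4 higher (Zbtb38, Mbd3, Kdm2b and Zbtb33) and 1 lower (Mbd1), where 31.6% of all tested genes passed, 15.9% higher and 15.7% lower. In 8P vs. 8ND, 4 of the 9 passed, all of them higher (Zbtb38, Zbtb33, Kdm2b and Zbtb4), where 28.2% of all tested genes passed, 13.9% higher and 14.3% lower. The median log2 fold change of the 9 genes was 0.14 in 0P vs. 0ND, beside -0.03 over all tested genes, and 0.28 in 8P vs. 8ND, beside 0.00. Values of the groups did not overlap for 6 of the 9 genes in 0P vs. 0ND and for 2 in 8P vs. 8ND, against 32.3% and 17.2% of all tested genes. Without 8ND 1 and 8ND 2, 3 of the 9 genes passed in 8P vs. 8ND.

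Zbtb38, a zinc finger repressor of the Kaiso family that binds methylated CpG, had the largest fold change of the 9 genes in both tissue comparisons. It is a protein-coding gene on chromosome 9, 96682770 to 96752831, minus strand (mm10). Its libraries held 301, 239, 239.9, 219 and 247 CPM in 8P, against 141, 143, 97.0, 109 and 107 CPM in 8ND. On the chow with 0 mg/kg FA they held 195, 279.9, 305 and 247 CPM in 0P, against 95.3, 94.9, 97.0 and 104 CPM in 0ND. Every dysplasia library exceeded every ND library of either chow, and the highest ND values belonged to 8ND 1 and 8ND 2. Expression rose 2.09-fold in 8P vs. 8ND (log2 fold change 1.06 ± 0.13 (SE), adjusted p = 1.4e-05) and 2.63-fold in 0P vs. 0ND (1.39 ± 0.15 (SE), adjusted p = 2.4e-06). Of all tested genes, 5.75% had a larger log2 fold change in 8P vs. 8ND and 5.62% in 0P vs. 0ND. An antisense gene inside Zbtb38, A930006L05Rik, had 66 counts over all 18 libraries.

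Zbtb33 (Kaiso), on chromosome X, 38189793 to 38197046, plus strand, binds methylated CpG pairs and also the Kaiso letters and recruits corepressors. It had 58.3, 52.1, 69.2, 59.2 and 63.0 CPM in 8P, against 52.3, 39.0, 44.0, 45.9 and 43.6 CPM in 8ND. With 0 mg/kg FA it had 47.5, 51.6, 58.0 and 59.1 CPM in 0P, against 38.9, 42.3, 45.8 and 40.3 CPM in 0ND. The groups were apart in 0P vs. 0ND, while 8ND 1 just passed the lowest 8P library. Zbtb33 rose 1.34-fold in 8P vs. 8ND (log2 fold change 0.43 ± 0.10 (SE), adjusted p = 0.0038) and 1.29-fold in 0P vs. 0ND (0.37 ± 0.11 (SE), adjusted p = 0.017). The call in 0P vs. 0ND was lost without 0ND 1 (adjusted p = 0.055) and without 0P 4 (adjusted p = 0.061), and it also failed without the filter on low counts (adjusted p = 0.071).

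The third member of the family, Zbtb4, lies on chromosome 11, 69765912 to 69784023, plus strand, and represses genes through methylated CpG. Its levels were 90.2, 99.3, 89.7, 109 and 105 CPM in 8P, against 67.1, 80.5, 78.2, 97.2 and 76.6 CPM in 8ND. They were 87.0, 87.1, 98.8 and 104 CPM in 0P, against 84.5, 86.4, 85.8 and 84.9 CPM in 0ND. The 4 values of 0ND were nearly equal and lay just under the lowest of 0P, while 8ND 4 reached into the range of 8P. Zbtb4 rose 1.24-fold in 8P vs. 8ND (log2 fold change 0.31 ± 0.10 (SE), adjusted p = 0.023), and in 0P vs. 0ND its value was 0.14 ± 0.11 (SE), adjusted p = 0.35. The call in 8P vs. 8ND was lost on leaving out 8ND 1 (adjusted p = 0.067), 8ND 5 (0.054), 8P 4 (0.062) or 8P 5 (0.054), with only these groups in the fit (0.055), and without 8ND 1 and 8ND 2 together (0.13).

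**Figure D3:**
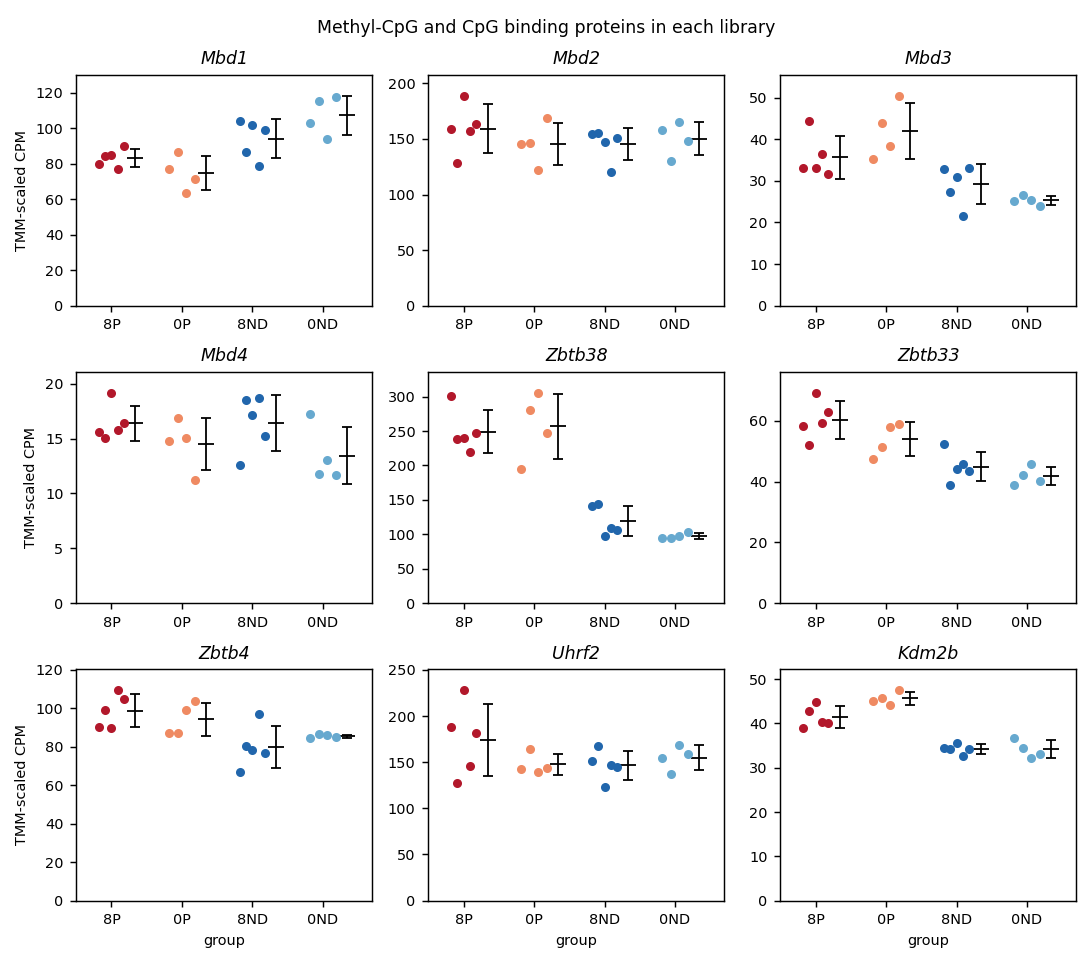
TMM-scaled CPM (y axis, from 0) of the 9 genes, 1 point per library in each group (x axis: 8P, 0P, 8ND, 0ND), with the group mean and SD as bars beside the points. The 9 dysplasia libraries of Zbtb38 sit between 195 and 305 CPM and the 9 ND libraries between 94.9 and 143 CPM, while the groups of Mbd2, Mbd4 and Uhrf2 overlap.

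Of the 4 Mbd genes, Mbd1 and Mbd3 passed the threshold, both in 0P vs. 0ND only, where 31.6% of all tested genes passed. Mbd1, a transcriptional repressor with an MBD and CXXC fingers (chromosome 18, 74267605 to 74282732, plus strand), was the 1 gene of the 9 that fell, in 0P vs. 0ND. It had 79.5, 84.5, 84.8, 77.1 and 89.8 CPM in 8P, against 104, 86.6, 102, 78.7 and 99.0 CPM in 8ND. It had 77.1, 86.5, 63.5 and 71.4 CPM in 0P, against 103, 115, 93.7 and 117 CPM in 0ND. All 0P libraries were under all 0ND libraries, and 8P lay within the range of 8ND but for 8P 4. The log2 fold change was -0.52 ± 0.11 (SE), adjusted p = 0.0017, in 0P vs. 0ND. In 8P vs. 8ND it was -0.18 ± 0.10 (SE), adjusted p = 0.21, with a 95% interval of -0.38 to 0.02.

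Mbd3, on chromosome 10, 80392539 to 80399550, minus strand, is the NuRD subunit whose MBD has little affinity for methylated CpG in mammals. Its libraries gave 33.02, 44.3, 33.1, 36.5 and 31.5 CPM in 8P, against 32.9, 27.3, 31.0, 21.6 and 33.1 CPM in 8ND. They gave 35.2, 44.0, 38.4 and 50.5 CPM in 0P, against 25.1, 26.6, 25.3 and 24.04 CPM in 0ND. The 0P values stood clear of the narrow 0ND range, whereas 8P and 8ND overlapped. Mbd3 rose 1.67-fold in 0P vs. 0ND (log2 fold change 0.74 ± 0.15 (SE), adjusted p = 7.3e-04). It did not pass in 8P vs. 8ND (0.28 ± 0.13 (SE), adjusted p = 0.12), where the 95% interval was 0.03 to 0.54.

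Neither Mbd2 nor Mbd4 passed in either tissue comparison. Mbd2 (chromosome 18, 70568189 to 70626131, plus strand) spanned 128 to 189 CPM in 8P, 122 to 169 CPM in 0P, 120.4 to 155 CPM in 8ND and 130.3 to 165 CPM in 0ND. Its log2 fold changes were 0.13 in 8P vs. 8ND (95% interval -0.09 to 0.35) and -0.05 in 0P vs. 0ND (-0.29 to 0.20). Since Mbd2 and Mbd3 are found in separate NuRD complexes, their levels per kb were set side by side. The ratio of Mbd3 to Mbd2 was 0.283 to 0.560 in 8P (median 0.335), 0.393 to 0.509 in 0P (0.485), 0.285 to 0.356 in 8ND (0.341) and 0.248 to 0.331 in 0ND (0.260). The ratio was given no test. Mbd4, the thymine glycosylase that removes T mispaired with G at CpG sites (chromosome 6, 115840697 to 115853371, minus strand), spanned 15.02 to 19.2 CPM in 8P, 11.2 to 16.9 CPM in 0P, 12.6 to 18.7 CPM in 8ND and 11.7 to 17.3 CPM in 0ND. It had the fewest counts, with a lowest of 67 in a library, and log2 fold changes of 0.00 ± 0.15 (SE) in 8P vs. 8ND and 0.10 ± 0.17 in 0P vs. 0ND.

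Kdm2b is a histone demethylase whose CXXC finger brings a variant Polycomb complex, PRC1.1, to CpG islands. The gene lies on chromosome 5, 122870665 to 122989823, minus strand. Libraries held 39.0, 42.9, 44.9, 40.4 and 40.1 CPM in 8P, against 34.6, 34.2, 35.6, 32.6 and 34.2 CPM in 8ND. With 0 mg/kg FA the values were 45.2, 45.8, 44.2 and 47.5 CPM in 0P, against 36.8, 34.6, 32.2 and 33.03 CPM in 0ND. Neither pair of groups overlapped, and the spread within each group was small. Kdm2b rose 1.21-fold in 8P vs. 8ND (log2 fold change 0.28 ± 0.08 (SE), adjusted p = 0.014) and 1.34-fold in 0P vs. 0ND (0.42 ± 0.09 (SE), adjusted p = 0.0013). The call in 8P vs. 8ND was lost without the filter on low counts (adjusted p = 0.12). Rnf34, a gene that overlaps the end of Kdm2b on the opposite strand, averaged 24.5 CPM in 8P, 23.97 CPM in 0P, 21.5 CPM in 8ND and 20.2 CPM in 0ND, with log2 fold changes of 0.18 ± 0.10 (SE), adjusted p = 0.21, in 8P vs. 8ND and 0.25 ± 0.12, adjusted p = 0.11, in 0P vs. 0ND. The strand setting of the counting is not given in the sources used here, and the part of Rnf34 reads in the Kdm2b counts was not tested.

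Uhrf2, a reader of hydroxymethylated cytosine, lies on chromosome 19, 30030513 to 30093722, plus strand. It had 188, 127, 228, 146 and 181 CPM in 8P, against 151, 167, 123, 147 and 144 CPM in 8ND. It spanned 139.7 to 164 CPM in 0P and 137 to 169 CPM in 0ND. The 8P libraries were the most scattered of the 4 groups, with 8P 2 low and 8P 3 high. The log2 fold change was 0.25 ± 0.13 (SE), adjusted p = 0.16, in 8P vs. 8ND, and -0.07 ± 0.14 (SE), adjusted p = 0.75, in 0P vs. 0ND. Leaving out 8P 2 alone moved the first of these to 0.34, past the threshold (adjusted p = 0.031).

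**Figure D4:**
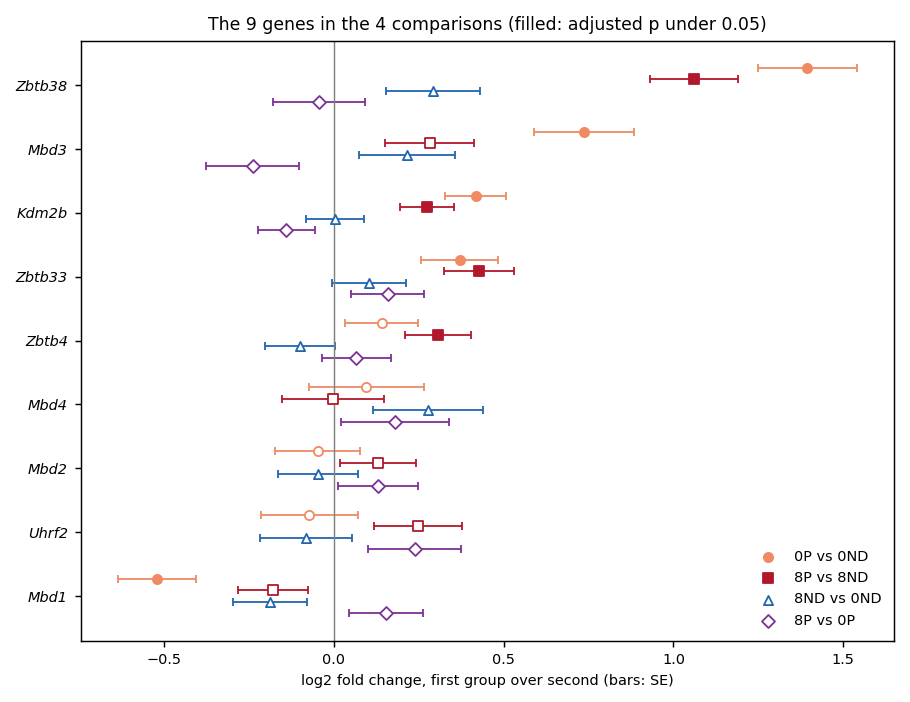
Log2 fold change of the 9 genes, with SE bars (x axis), in 0P vs. 0ND, 8P vs. 8ND, 8ND vs. 0ND and 8P vs. 0P; filled symbols passed an adjusted p of 0.05. Filled symbols occur only in the tissue comparisons, from 1.39 for Zbtb38 to -0.52 for Mbd1, and the values of the FA comparisons stay between -0.24 and 0.29.

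The effect of FA within each tissue was the next comparison. In 8P vs. 0P, 0 of the 9 genes passed an adjusted p of 0.05 in edgeR (0% of all tested genes), and 0 had an unadjusted p under 0.05, where 10.1% of all tested genes did. For 0 of the 9 genes were the groups free of overlap (2.25% of all tested genes). Log2 fold changes ran from -0.24 for Mbd3 to 0.24 for Uhrf2. Zbtb38 averaged 249 ± 30.8 CPM in 8P and 257 ± 47.6 CPM in 0P (SD, n = 5 and n = 4), a log2 difference of -0.04 with a 95% interval of -0.31 to 0.22. For Mbd3 the difference was -0.24 (-0.51 to 0.03), for Mbd1 0.15 (-0.06 to 0.37) and for Kdm2b -0.14 (-0.30 to 0.02).

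In 8ND vs. 0ND, 0 of the 9 genes passed in edgeR (0.0481% of all tested genes did), and 1, Zbtb38, had an unadjusted p under 0.05, against 9.91% of all tested genes. Zbtb38 averaged 119 ± 21.3 CPM in 8ND and 97.7 ± 4.01 CPM in 0ND (SD, n = 5 and n = 4), a log2 fold change of 0.29 ± 0.14 (SE), adjusted p = 0.50. The libraries 8ND 1 and 8ND 2, which were nearest to dysplasia on the first principal component, held 141 and 143 CPM, and without both the log2 fold change was 0.09 (adjusted p = 0.95). The remaining 8 genes had log2 fold changes of -0.19 for Mbd1 to 0.28 for Mbd4, and for 0 of the 9 genes were the groups free of overlap, against 3.94% of all tested genes. DESeq2 and limma-voom likewise gave 0 of the 9 genes in both FA comparisons.

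Whether FA altered the difference between dysplasia and ND was asked with the interaction term. In edgeR 0 of the 9 genes passed (0% of all tested genes), as in DESeq2 and limma-voom, and 2 had an unadjusted p under 0.05, against 10.4% of all tested genes. These were Mbd3, with an interaction of -0.45 ± 0.20 (SE), adjusted p = 0.44, and Mbd1, with 0.34 ± 0.15 (SE), adjusted p = 0.46, the pair that passed in 0P vs. 0ND and missed in 8P vs. 8ND. For Zbtb38 the interaction was -0.33 ± 0.19 (SE), adjusted p = 0.56, with a 95% interval of -0.71 to 0.05. A gene that passed on 1 chow and missed on the other is thus not shown to differ between chows. The 4 group comparisons share libraries with one another.

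Partners of these proteins were described from 6 gene lists. Of 12 further subunits of NuRD, the nucleosome remodelling and deacetylase complex that contains Mbd2 or Mbd3, 10 rose and 0 fell in 0P vs. 0ND, and 7 rose and 0 fell in 8P vs. 8ND, beside 15.9% and 13.9% of all tested genes that rose. The list's median log2 fold change was 0.56 in 0P vs. 0ND and 0.34 in 8P vs. 8ND. Hdac2, a catalytic deacetylase, had 103 ± 16.1 CPM in 8P and 60.2 ± 12.6 CPM (SD) in 8ND (log2 change 0.78 ± 0.17 (SE), adjusted p = 0.0020), and 118 ± 35.0 CPM in 0P and 58.7 ± 9.03 CPM (SD) in 0ND (1.01 ± 0.19 (SE), adjusted p = 4.4e-04). Mta1, a scaffold subunit, rose by 0.51 and 0.59 on the log2 scale in 8P vs. 8ND and in 0P vs. 0ND, and the histone chaperone Rbbp4 by 0.39 and 0.53. Its paralog Rbbp7 rose by 0.87 in 0P vs. 0ND (adjusted p = 2.4e-04) and by 0.38 in 8P vs. 8ND (adjusted p = 0.044), where the call was lost on leaving out any 1 of 8 libraries, 8ND 1 to 4 and 8P 1, 2, 4 and 5 (adjusted p 0.051 to 0.12). In the same comparisons 3 of the 9 proliferation genes rose in 8P vs. 8ND and 6 in 0P vs. 0ND, and their part in this list and in the lists that follow was not tested.

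Of 9 PRC1.1 partners of Kdm2b, 4 rose in 0P vs. 0ND and 3 in 8P vs. 8ND, and 0 fell, beside 15.9% and 13.9% of all tested genes that rose, with medians of 0.22 and 0.19. Pcgf1, the PCGF subunit that defines PRC1.1, had 10.5 ± 2.96 CPM in 8P and 2.68 ± 0.819 CPM (SD) in 8ND (log2 change 1.93 ± 0.26 (SE), adjusted p = 3.3e-05), and 10.8 ± 2.71 CPM in 0P and 2.34 ± 0.784 CPM (SD) in 0ND (2.24 ± 0.30 (SE), adjusted p = 1.7e-05). Skp1a rose by 0.96 in 8P vs. 8ND (adjusted p = 0.0035) and 1.16 in 0P vs. 0ND (adjusted p = 0.0017). Yaf2 rose by 0.46 and 0.70. The Yaf2 call in 8P vs. 8ND was lost on leaving out any 1 of 6 libraries, 8ND 1 to 3 and 8P 1, 4 and 5 (adjusted p 0.052 to 0.11). Bcor, the corepressor of the complex, passed in 0P vs. 0ND (0.31 ± 0.11 (SE), adjusted p = 0.029) but not on leaving out 0ND 1, 0ND 3, 0P 2 or 0P 4 (adjusted p 0.062 to 0.097), and in 8P vs. 8ND it had 0.09.

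Of 14 base excision and mismatch repair partners of Mbd4, 7 rose in 0P vs. 0ND and 4 in 8P vs. 8ND, and 0 fell, beside 15.9% and 13.9% of all tested genes that rose, with medians of 0.31 and 0.24. In 8P vs. 8ND the share of the list past the threshold was close to the 28.2% of all tested genes. Apex1, the endonuclease that cuts the site left by a glycosylase, had 16.5 ± 1.45 CPM in 8P and 9.82 ± 0.706 CPM (SD) in 8ND (log2 change 0.75 ± 0.16 (SE), adjusted p = 0.0021), and 18.4 ± 4.71 CPM in 0P and 8.51 ± 2.03 CPM (SD) in 0ND (1.13 ± 0.19 (SE), adjusted p = 1.3e-04). Tdg, the second glycosylase for T mispaired with G, rose by 0.92 in 0P vs. 0ND and by 0.52 in 8P vs. 8ND, where the call was lost without 8ND 2, 8ND 4 or 8P 4 (adjusted p 0.053 to 0.062). The gap-filling polymerase Polb rose by 0.61 in 8P vs. 8ND and had 0.28 ± 0.12 (SE), adjusted p = 0.087, in 0P vs. 0ND. Lig3, a DNA ligase, rose by 0.45 in 0P vs. 0ND, a call lost without 0ND 1, 0ND 2 or 0P 4 (adjusted p 0.055 to 0.11), and had 0.24 in 8P vs. 8ND.

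Among 8 corepressor partners of Zbtb33 and Mbd1, 3 rose and 1 fell in 0P vs. 0ND, and 2 rose and 0 fell in 8P vs. 8ND, with medians of 0.24 and 0.19. Over all tested genes 31.6% and 28.2% passed in these comparisons, so in 8P vs. 8ND the list was close to the background. Hdac3, a histone deacetylase, rose by 0.54 in 0P vs. 0ND and had 0.08 in 8P vs. 8ND (adjusted p = 0.61). Sin3a passed in 0P vs. 0ND (0.32), but not without 0ND 3 or 0P 4 (adjusted p 0.0501 to 0.0663). Tbl1xr1, the member that fell, changed by -0.38 in 0P vs. 0ND and missed the threshold on leaving out 0ND 3, 0ND 4, 0P 2 or 0P 3 (adjusted p 0.059 to 0.094).

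The lists closest in domain to the 9 genes held 1 called gene each, where 15.9% of all tested genes rose in 0P vs. 0ND and 13.9% in 8P vs. 8ND. Of 8 other proteins with an MBD fold, 6 were tested, and 1 of them, Mbd5, rose in 8P vs. 8ND (0.43 ± 0.11 (SE), adjusted p = 0.0075), with 0.02 in 0P vs. 0ND. Baz2a, Baz2b and Setdb2 had values between -0.14 and 0.18 in the tissue comparisons, and Mbd3l1 and Mbd3l2 were too low to test. Leaving out 8P 2 moved Baz2b in 8P vs. 8ND to 0.26, past the threshold in edgeR (adjusted p = 0.048). Of 7 other CXXC proteins, 1 rose in 0P vs. 0ND and 0 in 8P vs. 8ND. This was Cxxc5 (0.62 ± 0.22 (SE), adjusted p = 0.034), which missed the threshold in limma-voom (adjusted p = 0.070) and on leaving out any 1 of 6 libraries, 0ND 2 to 4 and 0P 1, 3 and 4 (adjusted p 0.056 to 0.11). Kdm2a, the paralog of Kdm2b, had 0.21 (adjusted p = 0.073) in 8P vs. 8ND and 0.08 in 0P vs. 0ND. The first of these passed the threshold in DESeq2 (adjusted p = 0.032) and on leaving out 8P 2 (0.036). Fbxl19 had 0.43 in 0P vs. 0ND (adjusted p = 0.0505), past the threshold in DESeq2 (0.032) and limma-voom (0.036), and Cxxc1 had 0.11. For the FA comparisons and for the interaction, 0 genes of the 6 lists passed.

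**Figure D5:**
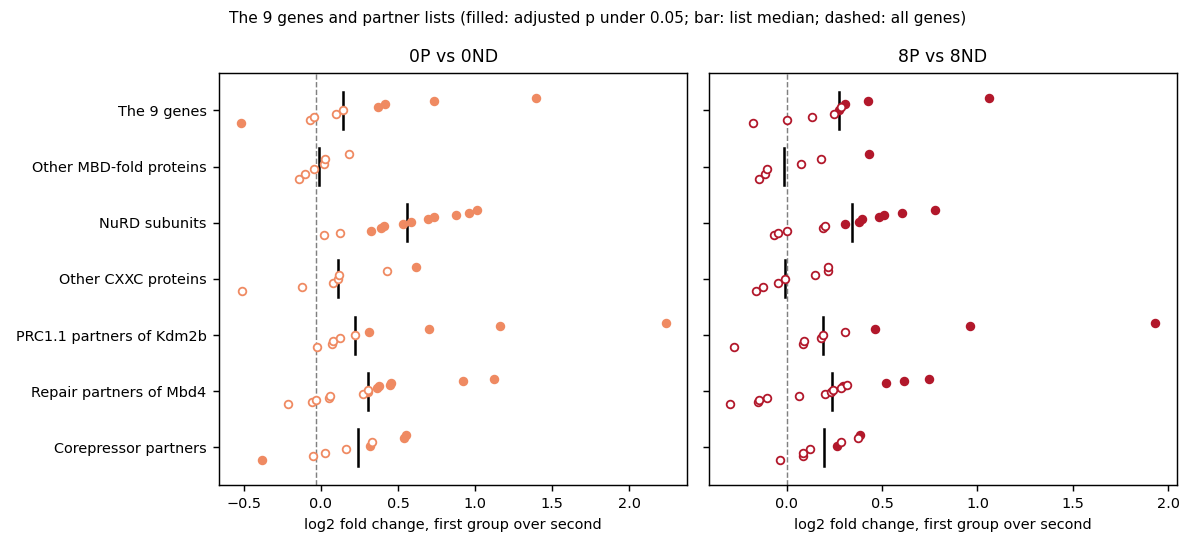
Log2 fold changes (x axis) of the 9 genes and of 6 partner lists (y axis) in 0P vs. 0ND (left) and 8P vs. 8ND (right), 1 point per gene; filled points passed an adjusted p of 0.05, black bars are list medians and the dashed line is the median of all tested genes. The NuRD list has the highest list median, 0.56 and 0.34, and Pcgf1 is the point farthest to the right in both panels.

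Some of the 9 genes varied alike over the 18 libraries, as a description in which the points share their 4 groups. On log2 CPM, Pearson's r was 0.84 for Zbtb38 with Kdm2b, 0.84 for Mbd3 with Kdm2b and 0.82 for Zbtb38 with Zbtb33, and the lowest was -0.74, for Mbd1 with Zbtb38. After group means were subtracted, the same pairs had r of -0.24, 0.45, 0.20 and -0.11. Mbd2 with Uhrf2 kept the closest likeness within groups, with r of 0.68 over all libraries and 0.63 after subtraction.

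Likeness to other genes was sought among 11743 with a mean of at least 5 CPM. Symbols made of Gm and digits or ending in Rik were left out. The one most like Zbtb38 over the 18 libraries was Abcc4, an efflux transporter (r = 0.98). Abcc4 had log2 fold changes of 1.57 in 8P vs. 8ND and 2.05 in 0P vs. 0ND. The r values in this paragraph include the differences between groups, and r after subtraction of group means was not taken for these pairs. The closest to Mbd3 was Eif3b, a subunit of a translation initiation factor (r = 0.96), and to Zbtb33 the phosphatase Ptpn12 (r = 0.93). Kdm2b was most like the collagen galactosyltransferase Colgalt1 (r = 0.93), Mbd4 like the GABA receptor subunit Gabbr1 (0.92), and Mbd1 like the adhesion receptor Adgra3 (0.91). For Uhrf2 the closest was the chemokine Ccl25 (0.89), for Mbd2 Cwf19l2 (0.88), and for Zbtb4 Pcdhgb7 (0.85), whose counts are uncertain because the protocadherin genes of its cluster share exons.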

How the data were processed

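Total RNA (40 ng) from laser-cut areas of fixed mouse colon was made into stranded libraries. Per the study's methods and the labels, the authors aligned reads to mm10 with Bowtie and deposited HTSeq counts per gene name for each library, not normalized; their versions and whether counting used strand are not stated in those sources. The 5 summary lines of each file stayed out of the totals: reads on no feature were 22.0 to 40.7%, and reads placed at several sites 40.1 to 62.2%, of a file's sum, so genes with near-identical copies may be undercounted.

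The 18 libraries were fitted together by group with edgeR 4.0.16 (R 4.3.3) after a filter with a minimum count of 10, with TMM factors, the robust quasi-likelihood test and Benjamini-Hochberg adjustment over 20787 genes. Standard errors were derived from the F statistic, and 95% intervals are unadjusted. DESeq2 1.42.0, which the study's methods name, limma-voom (limma 3.58.1), other scalings and filters, only the groups compared, a replicate block and leaving out each library were alternatives. The interaction was (8P vs. 0P) minus (8ND vs. 0ND). The fit was tested on simulated data. Levels per kb used the union of exons in GENCODE; promoter windows came from RefSeq, GRCm38.p6. No 2 libraries of a group agreed within sampling noise: the lowest chi-square per gene among 32 pairs was 10.4.

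All 9 genes are named, with up to 4 genes per partner list by smallest p over the 4 comparisons, and for each of the 9 the gene with the highest r. The result of 1 gene that this rule names is not reported here. The genes and lists were chosen with earlier results of these data known.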

Additional observations from a re-analysis of the deposited data

Results flagged for a closer look

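In 36 sets of values, the 9 genes in 4 groups, 2 held a library that stood far from the others of its group by Dixon's test at the 95% level, where chance alone marks about 1 in 20 sets. Mbd2 was low in 8ND 4, at 120.4 CPM, against 147 to 155 CPM in the other 8ND libraries. The library 8ND 4 had the fewest counts on genes of all libraries, 3500947, and the highest share of reads placed at several sites, 62.2%. It was also the lowest 8ND library for Mbd1, Mbd3 and Kdm2b and the highest for Zbtb4 and Mbd4. The part of its depth in these values was not tested. Uhrf2 was high in 0P 2, at 164 CPM, against 139.7 to 144 CPM in the other 0P libraries. Neither gene passed the threshold in a comparison of 2 groups, and leaving out either library did not change that.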

How the results depend on the processing

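The number of the 9 genes that passed was 4 to 5 over 16 alternatives in 0P vs. 0ND and 3 to 5 over 19 in 8P vs. 8ND, and 0 in every alternative for both FA comparisons and the interaction. Zbtb38, Mbd3, Mbd1 and Kdm2b in 0P vs. 0ND, and Zbtb38 and Zbtb33 in 8P vs. 8ND, passed in all of them. Of the values of single genes under the alternatives, 824 kept direction and side of the threshold, 28 changed sign without passing in either setting, 11 lost a call (Zbtb33, Zbtb4 and Kdm2b) and 1 gained one (Uhrf2 without 8P 2). The cause of these changes was not tested. Leaving out 8ND 1 and 8ND 2 together was chosen after seeing the data. With the replicate block, 5 genes passed in 0P vs. 0ND and 3 in 8P vs. 8ND, where Kdm2b missed the threshold (adjusted p = 0.059). The labels do not say whether a replicate number marks 1 mouse, and the libraries were treated as unpaired: deviations of same-numbered P and ND libraries of a chow had correlations of -0.08 to 0.27, 8 of 9 above 0, and 4 of 9 were closest to their own number. Depth limits Mbd4 most, with 67 counts in its lowest library.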
